A study of Mus musculus with 36 samples.

Results

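Collagens and the enzymes that fold, trim and cross-link them were followed by their transcript counts in heart, kidney and liver of young male mice. The set held 42 of the 78239 genes in the count files, chosen by name and function. It comprised 27 collagen chain genes and 15 genes for processing factors. The chain genes were 8 fibrillar chains, 6 chains of collagen IV, 6 chains of collagen VI and VIII, and 7 fibril-associated, multiplexin and transmembrane chains. The processing factors were 5 lysyl oxidases, 7 hydroxylases with 1 chaperone, and 2 propeptide proteases. The libraries came from male C57BL/6NCrl mice of wild-type genotype, labelled WT, with no treatment, allele or transgene named, aged 8, 10 or 12 weeks. Each of the 3 tissues had 4 libraries per age, giving 9 groups and 36 libraries of polyadenylated RNA from whole tissue. The labels number the libraries of a group, so p-values measure the spread between these libraries.

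A collagen molecule is a triple helix of 3 chains, and each chain is hydroxylated on proline and lysine in the endoplasmic reticulum before the helix closes. Fibrillar collagens are secreted with propeptides that proteases cut off, after which the molecules line up into fibrils and lysyl oxidases join them by covalent cross-links. Collagen IV instead forms a network in basement membranes, the sheets under epithelium and endothelium, and kidney glomeruli use a special set of its chains in the filtration barrier.

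Between 21031599 and 33637390 read pairs per library were assigned to genes. Levels are given in CPM, the share of counted pairs of a library on a per-million scale, after TMM scaling of all 36 libraries together by edgeR. Markers of the main cell type of each tissue matched the labels. The 4 cardiomyocyte markers (*Myh6*, *Tnnt2*, *Actc1* and *Myl2*) summed to at least 42394 CPM in every heart and to at most 1.30 CPM in every kidney and liver. Kidney tubule markers reached at most 2.99 CPM outside kidney. Hepatocyte markers summed to between 69.0 and 166 CPM in kidney and to between 0.0826 and 22.7 CPM in heart. Some lists of other cell types were not particular to their tissue. Mean sums were 342 CPM in heart and 289 in kidney for podocyte markers, and 2167 in heart and 126 in liver for hepatic stellate cell markers. For cholangiocyte markers, which mark the bile ducts, they were 136 in kidney and 8.12 in liver. Since these are whole tissues, fewer cells of a type and less RNA per cell cannot be told apart.

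The 42 genes together took 0.216% ± 0.0225 of counted pairs in heart, 0.195% ± 0.0169 in kidney and 0.182% ± 0.0162 in liver (mean ± SD, n = 12 libraries each), but the chains behind these similar totals differed between tissues. The 6 collagen IV chains made up 0.0873% of counted pairs in heart, 0.105% in kidney and 0.00699% in liver. In liver, the 7 fibril-associated, multiplexin and transmembrane chains made up 0.134%, most of it from a single gene, *Col18a1*. A gene was called different between tissues when edgeR's quasi-likelihood test with Benjamini-Hochberg adjustment gave an adjusted p-value under 0.05 and the log2 fold change (log2FC) exceeded 1 in size. Of the 41 members tested, 21 were higher and 8 lower in heart than in kidney, against 21.9% and 30.8% of all genes tested. With library size alone in place of TMM the split was 15 higher and 11 lower, and the median of all genes moved from -0.15 to -0.67 in log2FC. In heart against liver, 29 members were higher and 6 lower (28.7% and 26.5% of all genes). Kidney exceeded liver in 22 members and fell below it in 5 (30.6% and 17.2% of all genes). That split also depended on the processing, as given below for single members. The hydroxylase gene *P4ha3* had at most 5 counts in any library and was not tested.

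**Figure D1:**
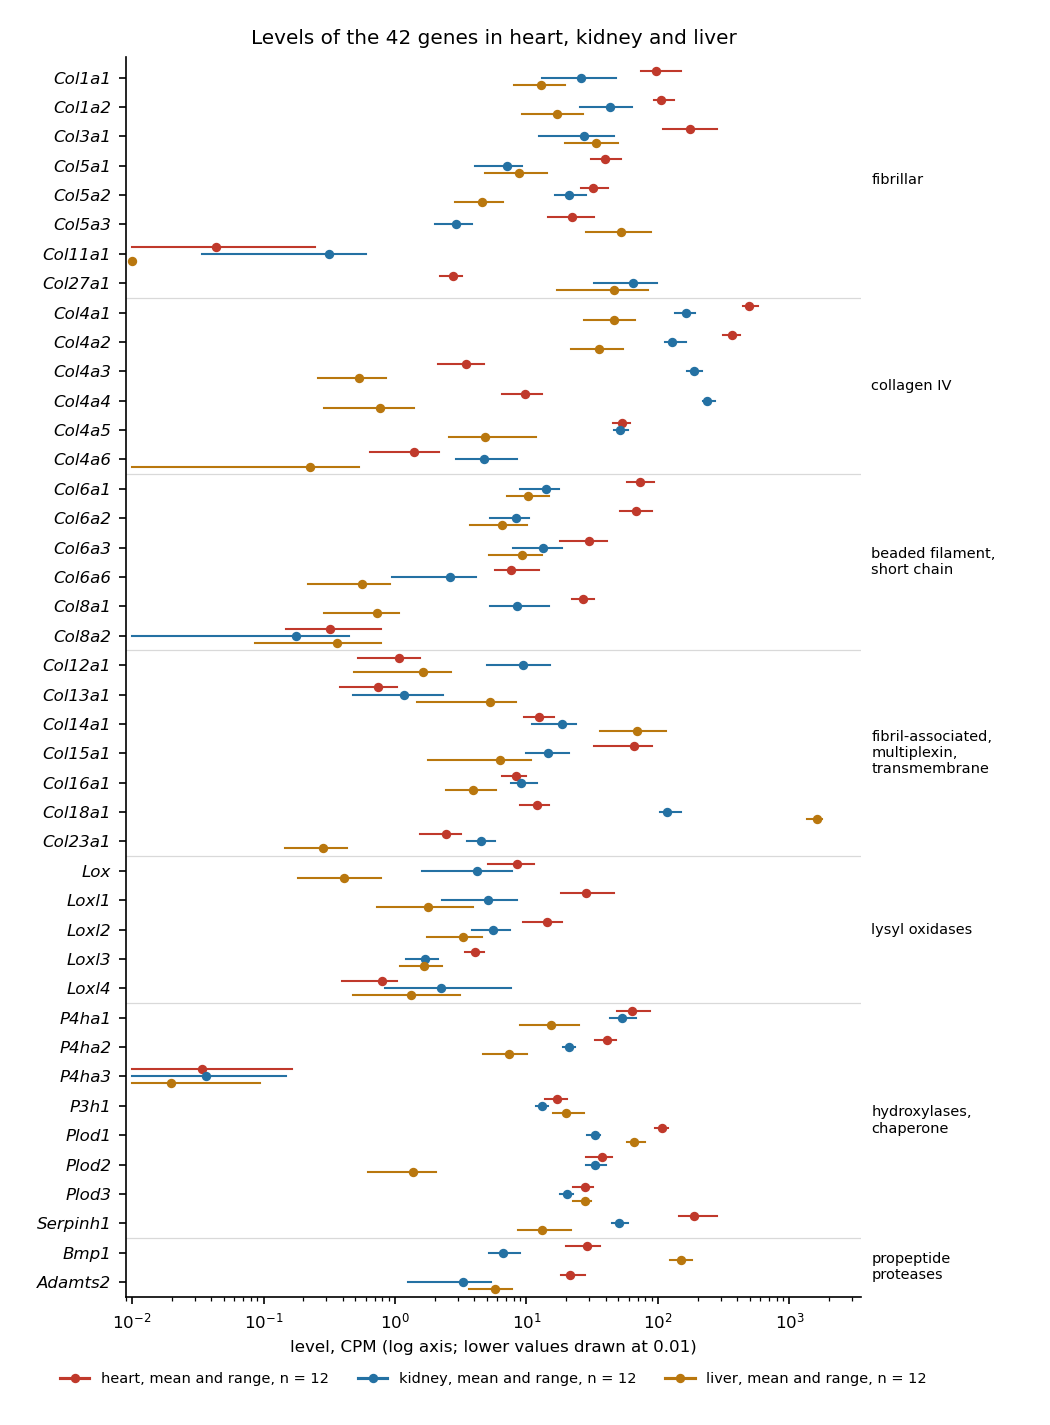
Level of each of the 42 genes in heart, kidney and liver, as CPM on a log axis, with points for the mean of 12 libraries and lines from the lowest to the highest library; values under 0.01 are drawn at 0.01. Most fibrillar, beaded filament and lysyl oxidase genes lie furthest right in heart, *Col4a3* and *Col4a4* in kidney, and *Col18a1* (1627 CPM), *Bmp1* and *Col14a1* in liver.

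Counting the genes that were called higher in 1 tissue than in both others, 18 members were highest in heart, 5 in kidney and 5 in liver, while 13 had no such tissue. Liver was called the lowest tissue for 21 members, including all 6 collagen IV chains. Heart was lowest for 2 (*Col18a1* and *Col27a1*) and kidney for 2 (*Col5a3* and *Bmp1*). The share of all genes with such a tissue was not computed, so these counts do not set the members apart from other genes. The heart and liver counts also depend on the processing. Over the 5 alternative fits, the log2FC of kidney against liver reached 1.25 for *Col6a1*, 1.15 for *Col6a2* and 1.34 for *Col6a3*. It reached 1.22 for *Col27a1*, 1.56 for *Loxl2* and 1.41 for *Loxl4*. All of these were under the fold threshold in the main fit. That of *Col1a1* was 1.01 in the main fit and at lowest 0.99 in the alternatives. With library size alone, the log2FC of heart against kidney fell under the fold threshold for *Col1a2* (0.75), *Col4a2* (0.98), *Col6a3* (0.59), *Lox* (0.48), *Loxl2* (0.81) and *Loxl3* (0.74).

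Heart held the most message for the major fibrillar collagens. *Col1a1* and *Col1a2*, the chains of collagen I, the main tensile collagen, and *Col3a1*, the chain of collagen III, were all called highest there. *Col1a1* was at 96.4 ± 20.0 CPM in heart, 25.8 ± 10.6 in kidney and 12.8 ± 4.35 in liver (mean ± SD, n = 12). *Col3a1* was at 176 ± 51.6 CPM in heart, 27.6 ± 10.1 in kidney and 33.6 ± 9.01 in liver. Its lowest heart library (109.5 CPM) lay above the highest kidney and liver libraries (46.0 and 49.8 CPM). Heart exceeded kidney by a log2FC of 1.91 ± 0.17 for *Col1a1* and 2.66 ± 0.17 for *Col3a1* (± SE). For *Col1a2* the heart to kidney difference was 1.28 ± 0.13, and 0.75 with library size alone, which no longer passed the fold threshold.

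The collagen V chains, which regulate the diameter of collagen fibrils, were split. *Col5a1* was highest in heart (39.8 ± 6.09 CPM, against 7.08 ± 1.75 in kidney and 8.80 ± 2.54 in liver). *Col5a2* did not separate heart from kidney at the fold threshold (log2FC 0.60 ± 0.07) and was lowest in liver at 4.63 ± 1.20 CPM. *Col5a3* was highest in liver instead, with 52.6 ± 15.0 CPM in liver, 22.2 ± 5.33 in heart and 2.91 ± 0.548 in kidney. *Col27a1*, a fibrillar chain best known from cartilage, was at 64.1 ± 20.3 CPM in kidney and 46.3 ± 18.7 in liver, and the 4 cartilage markers summed to at most 1.62 CPM in any library. In heart it was at 2.78 ± 0.356 CPM, a log2FC of -4.49 ± 0.20 against kidney. *Col11a1*, another cartilage-associated fibrillar chain, had 0 counts in every liver library, which allows up to 3 counts in each, and 0.315 ± 0.161 CPM in kidney.

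Collagen IV held the largest tissue difference of any member tested, and the chains of 2 of its 3 gene pairs shared the same highest tissue. The 6 chain genes lie head to head in 3 pairs, each with 1 gene on either strand and the starts close together. *Col4a1* and *Col4a2*, on chromosome 8, encode the chains found in nearly all basement membranes. *Col4a3* and *Col4a4*, on chromosome 1, join *Col4a5* in the network of the glomerular filtration barrier. *Col4a5* and *Col4a6* lie on chromosome X. The genes of the first pair share 356 bases and those of the second 159 bases in GENCODE vM39, and reads in such shared stretches cannot be assigned by counting without strand.

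*Col4a1* ran from 440.2 through a median of 483 to 572 CPM in the 12 heart libraries, from 134 through 161 to 191 CPM in kidney and from 27.3 through 47.3 to 66.9 CPM in liver. *Col4a2* ran from 315 through 371 to 419 CPM in heart, from 113.1 through 128 to 164 CPM in kidney and from 21.8 through 34.0 to 54.2 CPM in liver. The ranges of the 3 tissues did not overlap for either gene. Heart exceeded kidney by 1.61 ± 0.09 for *Col4a1* and by 1.51 ± 0.07 for *Col4a2* in log2FC (0.98 for *Col4a2* with library size alone), and kidney exceeded liver by 1.82 ± 0.09 and 1.88 ± 0.07. Per kilobase of exon, *Col4a1* was the member of highest level in both heart (66.4 CPM per kb) and kidney (21.8 CPM per kb).

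*Col4a3* ran from 165 through 187 to 216 CPM in kidney, from 2.14 through 3.44 to 4.79 CPM in heart, and averaged 0.534 ± 0.191 CPM in liver. *Col4a4* ran from 221 through 230.0 to 270.1 CPM in kidney, from 6.52 through 9.82 to 13.2 CPM in heart, and averaged 0.769 ± 0.382 CPM in liver. Every kidney library lay far above every other library for both genes. The kidney to liver log2FC was 8.46 ± 0.13 for *Col4a3* and 8.36 ± 0.11 for *Col4a4*, and that of kidney to heart was 5.73 for *Col4a3* and 4.59 for *Col4a4* (-5.73 ± 0.11 and -4.59 ± 0.09 as heart against kidney). Per kilobase, *Col4a4* (20.6) and *Col4a3* (18.8) followed *Col4a1* in kidney and stood above *Col4a2* (17.9). The liver values rest on 5 to 17 counts per library for *Col4a3* and 6 to 32 for *Col4a4*. The *Col4a3* level is uncertain by overlap, since counts of its 2 strands summed to 1.20 times its unstranded count. The same holds, among others, for *Plod3* (1.31 times), *Col1a2* (1.20), *Loxl1* (1.19), *Col11a1* (1.16) and *Col27a1* (1.14).

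*Col4a5* did not follow the other glomerular chains. It ran from 45.9 through 53.2 to 61.1 CPM in heart and from 46.6 through 51.1 to 59.4 CPM in kidney, so the ranges overlapped almost fully. The log2FC of heart against kidney was 0.04 ± 0.08 (edgeR adjusted p = 0.63). Liver ran from 2.59 through 4.11 to 11.7 CPM, well below both. Its neighbour *Col4a6* was low everywhere, at 4.75 ± 1.83 CPM in kidney, 1.40 ± 0.383 in heart and 0.228 ± 0.176 in liver, where counts ran from 0 to 14. In kidney the per kilobase ratio of *Col4a5* to *Col4a6* was 10.2, whereas that of *Col4a1* to *Col4a2* was 1.22 and that of *Col4a3* to *Col4a4* was 0.911. In heart the *Col4a3* to *Col4a4* ratio was 0.400.

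**Figure D2:**
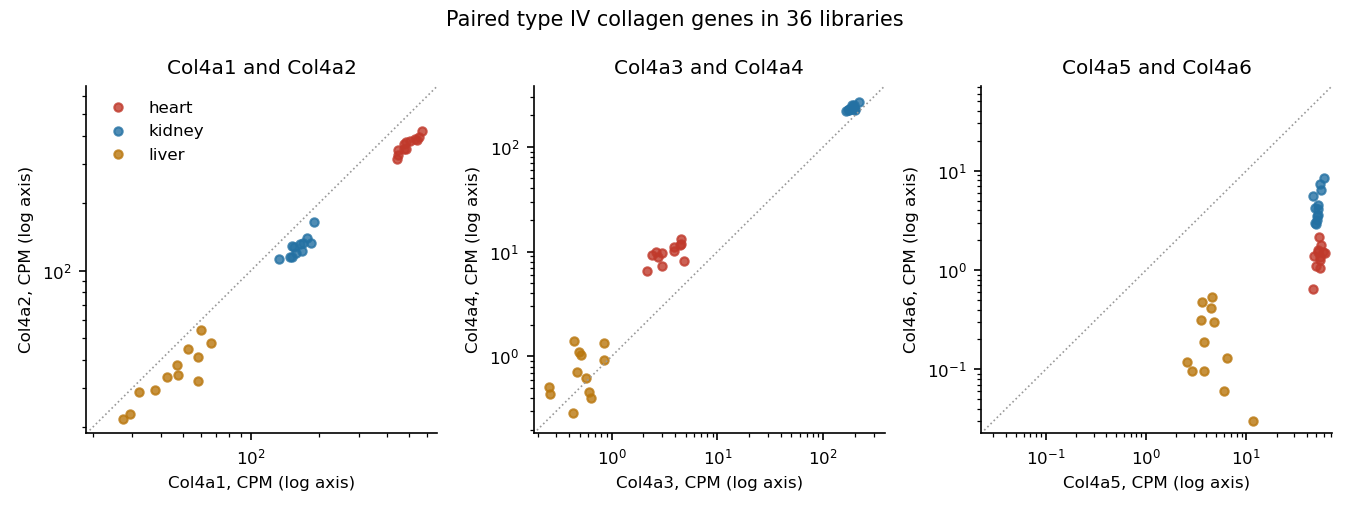
The 3 head-to-head collagen IV pairs in all 36 libraries, with the CPM of 1 gene of the pair on each log axis, colours for the tissues and a dotted line of equality; values under 0.03 are drawn at 0.03. *Col4a1* and *Col4a2* separate the 3 tissues along the line, *Col4a3* and *Col4a4* set kidney far apart, and *Col4a5* lies near 50 CPM in both heart and kidney while *Col4a6* does not.

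The *Col4a5* and *Col4a6* pair is shown by sequence because its genes, whose annotated spans lie 1281 bases apart, differed most in level within a pair. The stretches are upstream of the RefSeq starts, 5′ to 3′ on each gene's own strand, from a RefSeq table built on GRCm38.p6 and placed on GRCm39 by an exact match to that genome. *Col4a5* is at chrX:140258165-140258353 (plus strand, 250 to 61 bases before its start), with a CCAAT motif in capitals. *Col4a6* is at chrX:140257073-140257322 (minus strand, the 250 bases before its start), with a GC box (GGGCGG or its other strand CCGCCC) in capitals.
Col4a5: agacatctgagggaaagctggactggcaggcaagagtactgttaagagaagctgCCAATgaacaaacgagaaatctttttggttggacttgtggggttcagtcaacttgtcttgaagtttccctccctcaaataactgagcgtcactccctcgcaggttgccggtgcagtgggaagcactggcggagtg
Col4a6: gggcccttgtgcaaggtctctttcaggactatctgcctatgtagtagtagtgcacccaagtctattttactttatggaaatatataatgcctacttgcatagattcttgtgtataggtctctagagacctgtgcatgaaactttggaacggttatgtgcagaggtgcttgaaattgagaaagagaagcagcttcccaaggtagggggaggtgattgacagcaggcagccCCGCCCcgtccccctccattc
Both strands were searched over the 250 bases before each start, for the GC box, for CCAAT and for the TATA box (the letters TATAAA). The table held 34 promoters for 31 of the 42 members, and 24 of them (70.6%) held a GC box, 11 (32.4%) CCAAT and 3 (8.82%) a TATA box. Among all 32851 promoters of the table the shares were 32.7%, 33.8% and 12.4%. A match describes letters in this window and not a bound site.

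Beaded filament and short chain collagens were mainly heart messages. The collagen VI chains form microfibrils around muscle and other cells. *Col6a1* was at 72.4 ± 9.67 CPM in heart, 14.1 ± 2.87 in kidney and 10.3 ± 2.76 in liver. *Col6a2* was at 68.2 ± 10.8, 8.26 ± 1.57 and 6.50 ± 1.85 CPM in the same order, and its heart to kidney log2FC of 3.04 ± 0.12 was the largest of the 6 genes in that comparison. *Col6a3* was called highest in heart as well (29.8 ± 7.62 CPM, log2FC 1.12 ± 0.12 against kidney), but its difference was 0.59 with library size alone. *Col6a6* was also highest in heart, at 7.69 ± 1.93 CPM. *Col8a1*, a short chain of vessel walls, was at 27.1 ± 3.21 CPM in heart and 0.728 ± 0.268 CPM in liver, a log2FC of 5.23 ± 0.16. Its partner *Col8a2* was below 0.8 CPM in every library and had no called difference.

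Liver was set apart by *Col18a1*, the core protein of a basement membrane proteoglycan and the source of endostatin. It ran from 1349 through 1631 to 1769 CPM in liver, from 103 through 117 to 150.0 CPM in kidney and from 8.95 through 11.8 to 14.8 CPM in heart, with no overlap. The log2FC was 3.79 between liver and kidney and 7.09 between liver and heart (-3.79 ± 0.06 and -7.09 ± 0.07 with liver as the reference). At 230 CPM per kb it stood far above the next members in liver, *Bmp1* at 12.8 and *Col14a1* at 9.92. The other multiplexin, *Col15a1*, had the reverse order. It was at 65.4 ± 19.2 CPM in heart, 14.5 ± 3.60 in kidney and 6.29 ± 2.89 in liver.

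One RefSeq start of *Col18a1* has a short upstream stretch outside annotated exons, shown here for the gene that dominates the liver. The stretch shown lies at chr10:77002391-77002473 on the minus strand (GRCm39, matched as above) and covers 109 to 26 bases before that start, with 3 GC boxes in capitals that begin 61, 43 and 33 bases before it. Counts per gene do not tell which start was used.
Col18a1: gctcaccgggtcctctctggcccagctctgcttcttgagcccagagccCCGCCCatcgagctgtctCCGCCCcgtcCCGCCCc

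Of the remaining chains that associate with fibrils or cross the membrane, *Col14a1* ran from 36.5 through 66.2 to 116 CPM in liver and averaged 18.5 ± 3.89 in kidney and 12.4 ± 2.46 in heart. *Col13a1*, a transmembrane collagen, was also highest in liver, at 5.26 ± 2.17 CPM. *Col12a1* was highest in kidney (9.43 ± 2.87 CPM, against 1.08 ± 0.333 in heart and 1.63 ± 0.594 in liver). *Col16a1* and the transmembrane *Col23a1* were lowest in liver, at 3.89 ± 1.19 and 0.283 ± 0.0838 CPM. The counts of *Col13a1* are uncertain, since its 2 strands summed to 1.54 times the unstranded count.

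Messages of the cross-linking enzymes were also mostly highest in heart. *Lox*, *Loxl1*, *Loxl2* and *Loxl3* were called highest in heart, and *Loxl4* in no tissue. *Loxl1*, which also acts on elastin, was at 28.4 ± 7.97 CPM in heart, 5.09 ± 1.67 in kidney and 1.78 ± 0.912 in liver. *Lox* was at 8.43 ± 2.09 CPM in heart and 0.412 ± 0.200 in liver. Its heart to kidney log2FC of 1.01 ± 0.17 was just past the fold threshold and fell to 0.48 with library size alone, and those of *Loxl2* (1.34) and *Loxl3* (1.27) fell to 0.81 and 0.74. Most reads over *Loxl3* also overlap another gene, with strand counts summing to 3.78 times the unstranded count, so its level is uncertain.

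Among the factors that modify and fold the chains, the heat shock protein 47 gene *Serpinh1*, a chaperone particular to collagen, ran from 144 through 181 to 279 CPM in heart and averaged 50.8 ± 5.18 in kidney and 13.2 ± 3.68 in liver. At 26.8 CPM per kb it ranked after *Col4a1* and *Col4a2* (50.9) among the members in heart. The prolyl hydroxylase genes *P4ha1* and *P4ha2* were lowest in liver, at 15.3 ± 4.84 and 7.34 ± 1.56 CPM, and did not separate heart from kidney at the fold threshold. The lysyl hydroxylases had 3 different orders. *Plod1* was highest in heart at 108 ± 7.28 CPM, with 65.4 ± 5.95 in liver and 33.3 ± 2.18 in kidney, although its difference from liver (0.72 ± 0.04) was under the fold threshold. *Plod2* was at 37.7 ± 4.78 CPM in heart, 33.3 ± 3.90 in kidney and 1.37 ± 0.414 in liver. *Plod3* and the prolyl 3-hydroxylase gene *P3h1* had no difference past the fold threshold between any pair of tissues.

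The propeptide proteases divided. *Bmp1*, which cuts the C-terminal propeptides of fibrillar procollagens, ran from 124 through 144 to 182 CPM in liver, and was at 28.6 ± 4.23 CPM in heart and 6.61 ± 0.913 in kidney. Liver exceeded kidney by 4.50 and heart by 2.38 in log2FC (-4.50 ± 0.07 and -2.38 ± 0.07 with liver as the reference). *Adamts2*, which removes the N-terminal propeptides, was highest in heart at 21.5 ± 2.86 CPM, against 5.79 ± 1.37 in liver and 3.30 ± 1.24 in kidney.

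Age comparisons within each tissue asked which of these genes changed between 8, 10 and 12 weeks. A gene was called when edgeR's quasi-likelihood test gave an adjusted p-value under 0.05 over all genes of the tissue. The 3 age comparisons of a tissue share libraries and are not independent of each other. In heart 40 members were tested (all but *Col11a1* and *P4ha3*).

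In heart, 5 members were called higher and 0 lower in 10-week-old than in 8-week-old mice, against 0.76% of all genes higher and 0.304% lower. They were *Col3a1*, *Col5a2*, *Col6a3*, *Col14a1* and *Loxl1*. *Col14a1* encodes a fibril-associated chain that binds the surface of collagen I fibrils. It was at 9.60, 10.2, 9.52 and 11.5 CPM in the 8-week hearts, at 16.2, 13.6, 15.5 and 15.9 CPM in the 10-week hearts and at 11.4, 11.4, 13.5 and 10.4 CPM in the 12-week hearts. All 10-week values lay above all 8-week values. The rise at 10 weeks was 0.58 ± 0.10 in log2FC (edgeR adjusted p = 0.0137).

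*Col6a3* was at 27.0, 20.2, 17.9 and 20.2 CPM at 8 weeks, at 39.0, 31.5, 36.6 and 29.6 CPM at 10 weeks and at 36.9, 40.8, 28.4 and 29.5 CPM at 12 weeks. Its 8-week values lay below all later ones. It rose by 0.68 ± 0.14 at 10 weeks (edgeR adjusted p = 0.0263). *Col5a2* was at 26.0, 28.7, 27.2 and 30.3 CPM at 8 weeks, at 41.5, 31.2, 38.4 and 38.3 CPM at 10 weeks and at 28.4, 29.5, 34.6 and 30.5 CPM at 12 weeks. Here too the 8-week and 10-week values did not overlap, while the 12-week values overlapped both. The rise at 10 weeks was 0.41 ± 0.09 (edgeR adjusted p = 0.0413).

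*Col3a1* was at 160.4, 134, 109.5 and 125 CPM at 8 weeks, at 280.1, 136, 242 and 213 CPM at 10 weeks and at 171, 181, 212 and 147 CPM at 12 weeks. Its 10-week replicate 2 lay within the 8-week range, and the rise of 0.72 ± 0.17 passed only narrowly (edgeR adjusted p = 0.0498). *Loxl1* was at 27.6, 20.5, 18.2 and 23.5 CPM at 8 weeks, at 46.1, 26.3, 33.3 and 39.8 CPM at 10 weeks and at 28.6, 28.4, 23.4 and 25.0 CPM at 12 weeks. Replicate 2 was again the 10-week library within the 8-week range. The rise was 0.70 ± 0.15 (edgeR adjusted p = 0.0315).

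Upstream sequence is shown for *Col3a1* and *Col6a3*, the called heart genes whose table entry had a stretch outside annotated exons. *Col3a1* is at chr1:45350448-45350697 (GRCm39, plus strand, the 250 bases before the RefSeq start). The letters TATAAA are in capitals there and begin 117 bases before the start. *Col6a3* is at chr1:90771781-90771943 (minus strand, 250 to 87 bases before the start), where none of the 3 motifs was found.
Col3a1: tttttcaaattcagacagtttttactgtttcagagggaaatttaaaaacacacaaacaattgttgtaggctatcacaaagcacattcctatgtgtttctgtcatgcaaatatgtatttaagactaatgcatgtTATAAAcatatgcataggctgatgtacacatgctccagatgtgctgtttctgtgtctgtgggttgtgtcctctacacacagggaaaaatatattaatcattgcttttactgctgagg
Col6a3: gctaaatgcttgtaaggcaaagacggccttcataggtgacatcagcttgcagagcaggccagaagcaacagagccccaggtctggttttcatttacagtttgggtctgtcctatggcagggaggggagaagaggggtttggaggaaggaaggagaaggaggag

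**Figure D3:**
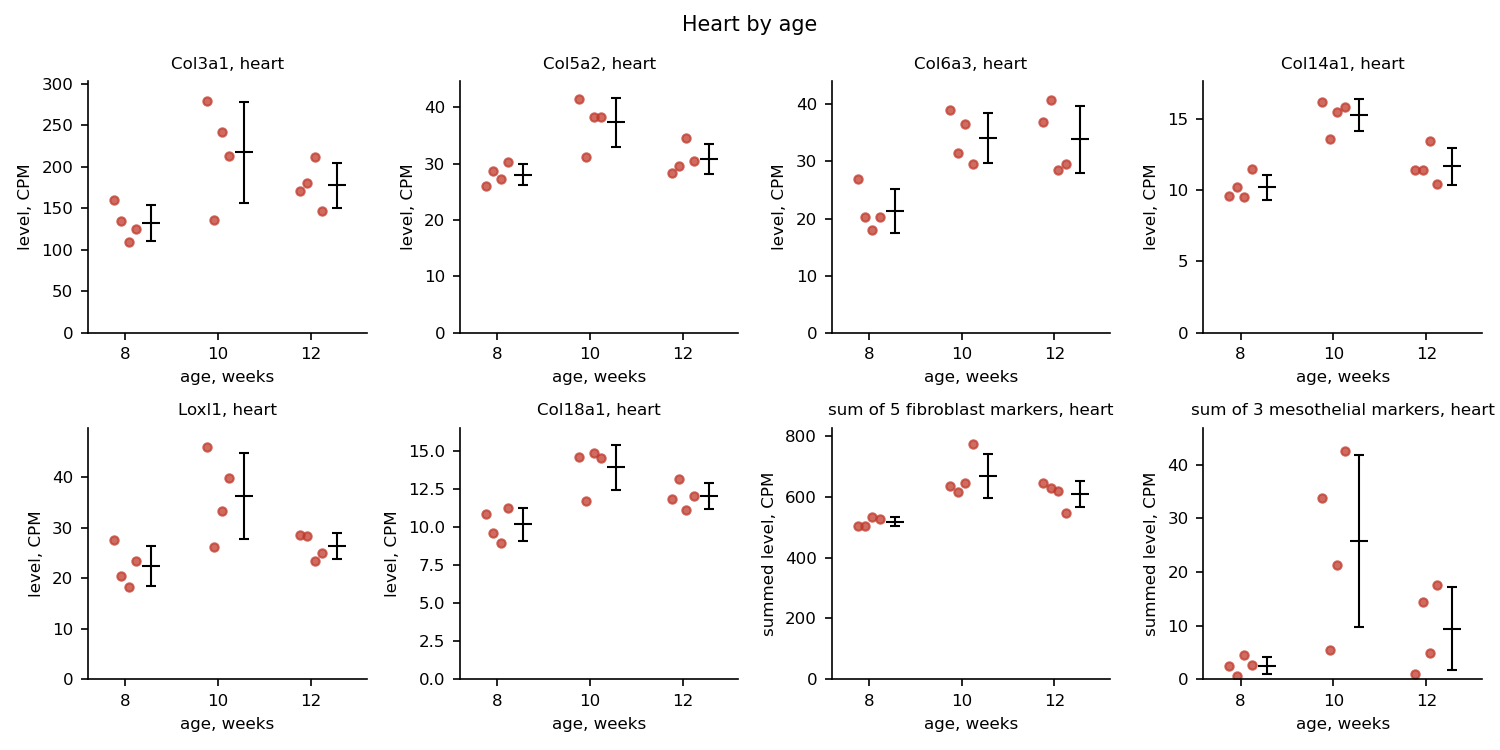
CPM of 6 members and the summed CPM of 5 fibroblast and 3 mesothelial markers in the 12 heart libraries by age in weeks, with a point per library and bars for the mean ± SD (n = 4). The 10-week points sit above the 8-week points without overlap for *Col5a2*, *Col6a3*, *Col14a1* and *Col18a1*, and the marker sums of the same libraries are also higher.

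Other members missed the threshold at 10 against 8 weeks. *Col18a1* had a log2FC of 0.45 ± 0.11 (edgeR adjusted p = 0.0523), *Col1a2* of 0.31 ± 0.08 (adjusted p = 0.0654), *P4ha1* of 0.43 ± 0.12 (adjusted p = 0.0872) and *Serpinh1* of 0.46 ± 0.13 (adjusted p = 0.0932). At an unadjusted p under 0.05 there were 16 higher and 1 lower, where 15.8% of all genes passed in either direction. Of the 40 members, 33 had a positive log2FC, where 49.1% of all genes did. The members' median was 0.25 and that of all genes -0.0045. The fibrillar chains had a median of 0.37 with 2 of 7 called, and all 7 fibril-associated, multiplexin and transmembrane chains were positive with 1 called. Collagen IV had a median of 0.039, with 0 of 6 called and 0 at an unadjusted p under 0.05. The levels of *Col4a1* in heart were 500.2 ± 27.98, 502.5 ± 69.2 and 483.5 ± 35.97 CPM at 8, 10 and 12 weeks (mean ± SD, n = 4). The 10-week values of 6 members lay wholly above the 8-week values (*Col1a2*, *Col5a2*, *Col6a3*, *Col14a1*, *Col18a1* and *P4ha1*), where 5.05% of all genes did so, and those of 0 members lay wholly below (4.68% of all genes).

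The number of calls depended on single libraries, for the members and for all genes alike. Without 8-week replicate 2 or 3 the count was 0, without 8-week replicate 4 or any of 10-week replicates 1, 3 and 4 it was 1, without 8-week replicate 1 it was 6, and without 10-week replicate 2 it was 15. Of all genes, 115 were called higher and 46 lower with all libraries. These became 25 and 7 without 8-week replicate 2, 42 and 13 without 8-week replicate 3, 190 and 105 without 8-week replicate 1, and 249 and 161 without 10-week replicate 2. The 5 fibroblast markers summed to between 504.7 and 532.4 CPM at 8 weeks, between 616.5 and 774.1 at 10 weeks and between 547.5 and 644.9 at 12 weeks. At 10 weeks 3 of the 5 were called higher, namely *Lum* (0.68 ± 0.09, edgeR adjusted p = 0.00242), *Pdgfra* (0.53 ± 0.08, adjusted p = 0.00263) and *Dpt* (0.41 ± 0.09, adjusted p = 0.0398). The 3 mesothelial markers, which mark the covering of the heart, were all called higher at 10 weeks, with sums from 0.588 to 4.42 CPM at 8 weeks, from 5.52 to 42.5 at 10 weeks and from 1.03 to 17.5 at 12 weeks. Replicate 2 had the lowest of the 10-week mesothelial sums. Hepatocyte markers also reached 16.6 CPM in 10-week replicate 2 and 22.7 in replicate 4. Mean sums at 8 and 10 weeks were 584 and 587 CPM for endothelial markers, and 1033 and 1039 for smooth muscle and pericyte markers. They were 2382 and 2152 CPM for hepatic stellate cell markers, and 127 and 148 for macrophage markers. The part of any of these markers in the members' rise was not tested.

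*Col6a3* was the 1 member called at 12 against 8 weeks in heart, with a rise of 0.66 ± 0.14 (edgeR adjusted p = 0.0162), where 2.36% of all genes were called higher and 2.21% lower. Without 8-week replicate 4 or 12-week replicate 2 no member was called, and without 8-week replicate 1 or 12-week replicate 4 there were 4. Calls over all genes moved too, from 357 higher and 334 lower to 86 and 94 without 8-week replicate 4 and 106 and 109 without 12-week replicate 2. They were 388 and 380 without 8-week replicate 1, and 881 and 969 without 12-week replicate 4. The members' median was 0.13, and 26 of 40 were positive (50.1% of all genes). On the lower side, *Bmp1* had a log2FC of -0.37 ± 0.11 (edgeR adjusted p = 0.0546) and the lysyl hydroxylase gene *Plod3* -0.28 ± 0.08 (adjusted p = 0.0592). Both were the members whose 12-week values lay wholly below the 8-week values, where 5.38% of all genes did so. The 6 whose 12-week values lay wholly above were *Col4a4*, *Col5a1*, *Col6a3*, *Col6a6*, *Col12a1* and *Loxl3* (7.31% of all genes).

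From 10 to 12 weeks no heart member was called, where edgeR called 0.0396% of all genes. DESeq2 called 1 member, where it called 35 higher and 36 lower of all 15137 genes, and limma-voom called 0. At an unadjusted p under 0.05 there were 9 members lower and 0 higher (11.7% of all genes in either direction). All 7 fibrillar chains had a negative log2FC, and 29 of the 40 members did (49.3% of all genes). *Col14a1* had -0.39 ± 0.10 (edgeR adjusted p = 0.227) and was the 1 member with 12-week values wholly below the 10-week values (2.58% of all genes), while 0 lay wholly above (3.51%).

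Kidney had 1 member that changed with age, *Col15a1*, a basement membrane collagen that links the membrane to the fibrils beneath it. Its kidney values were 9.94, 11.4, 10.2 and 9.97 CPM at 8 weeks, 16.5, 13.9, 14.6 and 16.1 CPM at 10 weeks, and 17.2, 18.2, 21.2 and 14.6 CPM at 12 weeks. All 8-week libraries lay below all later ones, and the 10-week and 12-week values overlapped. The rise was 0.58 ± 0.10 at 10 against 8 weeks (edgeR adjusted p = 0.0198) and 0.78 ± 0.10 at 12 against 8 weeks (adjusted p = 0.00844). It was the 1 member called in each, where 0.646% and 0.0397% of all genes were called higher and 0.283% and 0.017% lower. Without 8-week replicate 3 the call at 12 weeks was lost (adjusted p = 0.0639). The call at 10 weeks was lost without 8-week replicate 3 or 4 or 10-week replicate 1 or 3, up to an adjusted p of 0.0729, and without 10-week replicate 2 or 4 there were 2 members called. Over all genes the calls at 10 weeks went from 114 higher and 50 lower to 21 and 2 without 10-week replicate 3, and to 246 and 88 without 10-week replicate 4. The 5 endothelial markers of these kidneys summed to between 190 and 223 CPM at 8 weeks, between 199 and 214 at 10 weeks and between 190 and 229 at 12 weeks. Of the other marker lists, the 5 macrophage markers summed to between 62.7 and 71.7 CPM at 8 weeks, between 63.8 and 78.9 at 10 weeks and between 74.6 and 93.6 at 12 weeks, so the 12-week sums lay wholly above the 8-week sums. The 3 mesothelial markers summed to between 3.51 and 6.00 CPM at 8 weeks, between 6.07 and 10.2 at 10 weeks and between 3.56 and 6.55 at 12 weeks, with the 10-week sums wholly above the 8-week sums. None of the macrophage or mesothelial genes tested was called in either comparison, and their part in the *Col15a1* rise was not tested.

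In heart the *Col15a1* values were 71.8, 51.2, 35.5 and 32.4 CPM at 8 weeks, 79.7, 47.9, 90.2 and 72.2 CPM at 10 weeks and 80.8, 84.7, 66.0 and 71.9 CPM at 12 weeks, with overlap at both later ages (12 against 8 weeks, 0.66 ± 0.21, edgeR adjusted p = 0.0707). The difference between the heart and kidney changes was -0.11 ± 0.37 at 12 weeks. In liver the 12-week values were 5.03, 6.15, 2.83 and 4.07 CPM, within the range of the 8-week values of 10.8, 5.55, 7.13 and 1.77 CPM. The change in liver less that in kidney was -1.27 ± 0.42 (edgeR adjusted p = 0.183).

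Of the other 39 members tested in kidney, none was called at any age. The prolyl hydroxylase gene *P4ha1* was at 51.4, 54.4, 43.4 and 46.7 CPM at 8 weeks, 67.6, 55.9, 61.7 and 61.1 at 10 weeks and 53.5, 47.4, 47.5 and 45.3 at 12 weeks. Its 10-week values lay above all others, with a log2FC of 0.35 ± 0.08 against 8 weeks (edgeR adjusted p = 0.0530) and -0.36 ± 0.08 from 10 to 12 weeks (adjusted p = 0.0611). *Col4a6* was at 4.16, 3.55, 3.54 and 3.00 CPM at 8 weeks and 7.38, 5.59, 8.54 and 4.25 CPM at 10 weeks, without overlap (0.88 ± 0.25, adjusted p = 0.0991), while at 12 weeks it was at 6.37, 2.92, 4.47 and 3.22 CPM. *Col27a1* was at 81.6, 77.1, 97.7 and 90.0 CPM at 8 weeks, 71.1, 59.8, 32.7 and 49.6 at 10 weeks and 59.2, 54.1, 34.8 and 61.1 at 12 weeks. Its 8-week values were the highest, but the log2FC of -0.72 ± 0.20 at 12 against 8 weeks had an adjusted p of 0.232. In all, 3 members lay without overlap above and 2 below at 10 against 8 weeks (3.84% and 5.14% of all genes), 1 above and 3 below at 12 against 8 weeks (3.42% and 3.08%), and 1 above and 2 below at 12 against 10 weeks (5.62% and 3.51%). The kidney chains of the filtration barrier showed no called age difference, with *Col4a3* between 165 and 216 CPM in all 12 libraries.

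Between 10 and 12 weeks no kidney member was called (0.482% of all genes were). DESeq2 called 2 members, where it called 349 higher and 308 lower of all 17649 genes. At an unadjusted p under 0.05, 9 members were lower and 1 higher (16.4% of all genes). The members' median log2FC in kidney was -0.049 at 12 against 8 weeks, where 16 of 40 were positive (50.8% of all genes), and its sign changed without 8-week replicate 2 (0.019) or 12-week replicate 2 (0.0054). It was 0.087 at 10 against 8 weeks and -0.14 at 12 against 10 weeks.

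**Figure D4:**
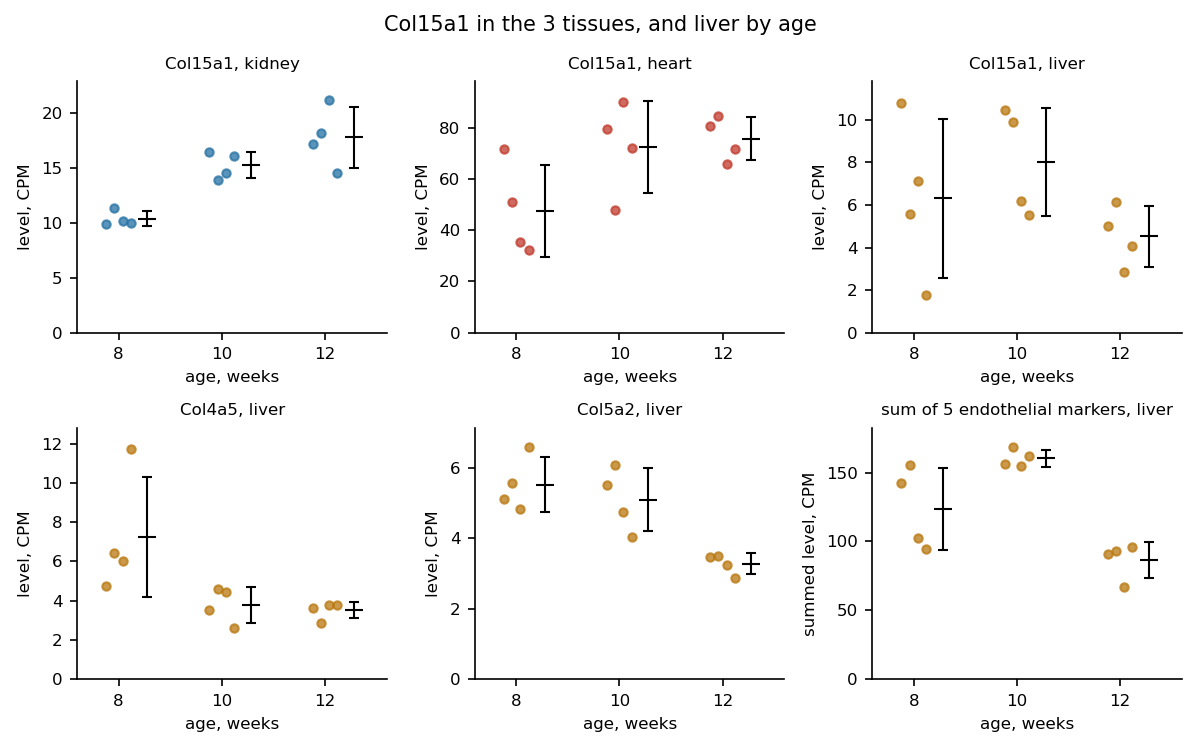
CPM by age in weeks of *Col15a1* in kidney, heart and liver and of *Col4a5*, *Col5a2* and the summed 5 endothelial markers in liver, with a point per library and bars for the mean ± SD (n = 4). In kidney the 4 *Col15a1* points at 8 weeks lie below all 8 later points, and in liver the *Col4a5* and *Col5a2* points at 12 weeks lie below those at 8 weeks.

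In liver none of the 38 members tested was called at any age, where edgeR called 0.239% of all genes at 12 against 8 weeks, 0.0204% at 10 against 8 weeks and 0.0545% at 12 against 10 weeks. DESeq2 called 2, 1 and 3 members in these comparisons and limma-voom 0 in each. Of all 14672 genes DESeq2 called 238 higher and 185 lower at 12 against 8 weeks. It called 190 higher and 171 lower at 10 against 8 weeks, and 183 higher and 300 lower at 12 against 10 weeks. At an unadjusted p under 0.05, 12 members were lower and 0 higher at 12 against 8 weeks, and 11 lower and 0 higher at 12 against 10 weeks, where 15.1% and 14.1% of all genes passed in either direction. The counts at 10 against 8 weeks were 3 lower and 3 higher (14.3% of all genes). The members' median log2FC was -0.35 at 12 against 8 weeks, with 29 of 38 negative (50.7% of all genes), and -0.35 at 12 against 10 weeks, with 36 of 38 negative (49% of all genes). The medians of all genes were -0.0039 and 0.0064.

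The group medians at 12 against 8 weeks were -0.60 for the 5 collagen IV chains tested, -0.43 for the fibrillar chains, -0.47 for collagens VI and VIII, and -0.084 for the hydroxylases and chaperone. *Col5a2* was at 5.12, 5.55, 4.82 and 6.60 CPM in the 8-week livers, at 5.50, 6.07, 4.75 and 4.02 CPM at 10 weeks and at 3.47, 3.51, 3.25 and 2.86 CPM at 12 weeks. Its 12-week values were the lowest 4 of the 12, with a log2FC of -0.76 ± 0.17 against 8 weeks (edgeR adjusted p = 0.0834). *Col4a5* was at 4.77, 6.43, 6.04 and 11.7 CPM at 8 weeks, at 3.53, 4.58, 4.44 and 2.59 CPM at 10 weeks and at 3.64, 2.88, 3.77 and 3.78 CPM at 12 weeks. Its 8-week values were the highest 4, and the log2FC at 12 weeks was -1.04 ± 0.27 (adjusted p = 0.119).

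*Col4a4* was at 1.36, 1.40, 1.10 and 0.917 CPM in the 8-week livers, at 1.04, 0.458, 0.516 and 0.398 CPM at 10 weeks and at 0.434, 0.624, 0.706 and 0.291 CPM at 12 weeks, levels of few counts (log2FC at 12 against 8 weeks -1.22 ± 0.36, edgeR adjusted p = 0.157). *Col4a2* was at 38.1, 41.3, 33.7 and 29.3 CPM at 8 weeks, at 44.9, 47.6, 34.3 and 54.2 at 10 weeks and at 32.1, 28.6, 21.8 and 22.8 at 12 weeks. All its 12-week values lay below all 10-week values (-0.78 ± 0.16, adjusted p = 0.0717). In all, 5 members had 12-week values wholly below the 8-week values (*Col4a4*, *Col4a5*, *Col5a2*, *Col6a3* and *Adamts2*) where 3.56% of all genes did so, and 0 wholly above (4.4% of all genes). At 12 against 10 weeks 4 lay wholly below (4.66% of all genes) and 0 above (3.44%), and at 10 against 8 weeks 1 lay below and 1 above (4.68% and 4.79%). *Col18a1*, the dominant liver member, was at 1636, 1691, 1590.2 and 1728 CPM at 8 weeks, 1577, 1608, 1769 and 1586 at 10 weeks, and 1625, 1693, 1674 and 1349 at 12 weeks.

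Markers of vessel and stromal cells were followed in the same livers, and some members had the endothelial order of ages while others did not. The mean endothelial sum was 124 CPM at 8 weeks, 160 at 10 weeks and 86.5 at 12 weeks. *Col4a1* and *Col4a2* together had the same order, at 0.00644%, 0.00822% and 0.00483% of counted pairs. *Col4a5* did not, and was already lower at 10 than at 8 weeks. The 5 endothelial markers summed to between 94.2 and 155 CPM at 8 weeks, between 155 and 169 at 10 weeks and between 67.0 and 95.7 at 12 weeks, with 0 of 5 called. The 7 hepatic stellate cell markers summed to between 87.6 and 189, between 121 and 143, and between 76.2 and 133 CPM at the 3 ages, also with 0 called and all 7 negative at 12 against 8 weeks, but with overlap between the ages. The 5 smooth muscle and pericyte markers summed to between 52.8 and 58.9 CPM at 8 weeks, between 50.5 and 87.2 at 10 weeks and between 36.8 and 46.8 at 12 weeks, wholly below both earlier ages, with 0 of the 3 tested called at 12 against 8 weeks. The 5 fibroblast markers summed to between 146 and 251, between 172 and 224, and between 114 and 186 CPM, with overlap and 0 called at 12 against 8 weeks. Their part in the members' values was not tested. The common biological coefficient of variation was 0.206 in liver, against 0.118 in heart and 0.113 in kidney.

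Whether a member changed differently in 2 tissues was tested as an interaction in the fit of all 36 libraries. That fit took the libraries as independent, and the labels do not say whether 1 number marks 1 animal in the 3 tissues. At 12 against 8 weeks the change in liver was lower than that in heart for 3 members, where 2.35% of all genes were called lower, and higher for 0 (1.81%). These were *Col4a4* (difference in log2FC -1.65 ± 0.32, edgeR adjusted p = 0.0037), *Col5a2* (-0.88 ± 0.19, adjusted p = 0.00736) and *Col4a5* (-0.91 ± 0.23, adjusted p = 0.0219). The first and second of these held without any 1 replicate number of an age, and *Col4a5* held in 5 of 8 such fits. Compared with kidney, *Col4a5* alone was called, at -1.06 ± 0.23 (adjusted p = 0.0265), where 0.137% of all genes were lower and 0.167% higher, and 6 of the 8 fits without a replicate number lost it. At 10 against 8 weeks, liver less heart was called for *Col4a4* (-1.28 ± 0.31, adjusted p = 0.0327) and *Col4a5* (-0.89 ± 0.23, adjusted p = 0.0428), where 0.71% of all genes were lower and 0.38% higher. Each held in 2 of 8 such fits. No member was called for heart less kidney at 12 or 10 against 8 weeks (0.112% and 0.198% of all genes were), nor for liver less kidney at 10 against 8 weeks (0.0558%). The fit of liver alone called none of these genes, so the calls concern the difference between tissues.

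**Figure D5:**
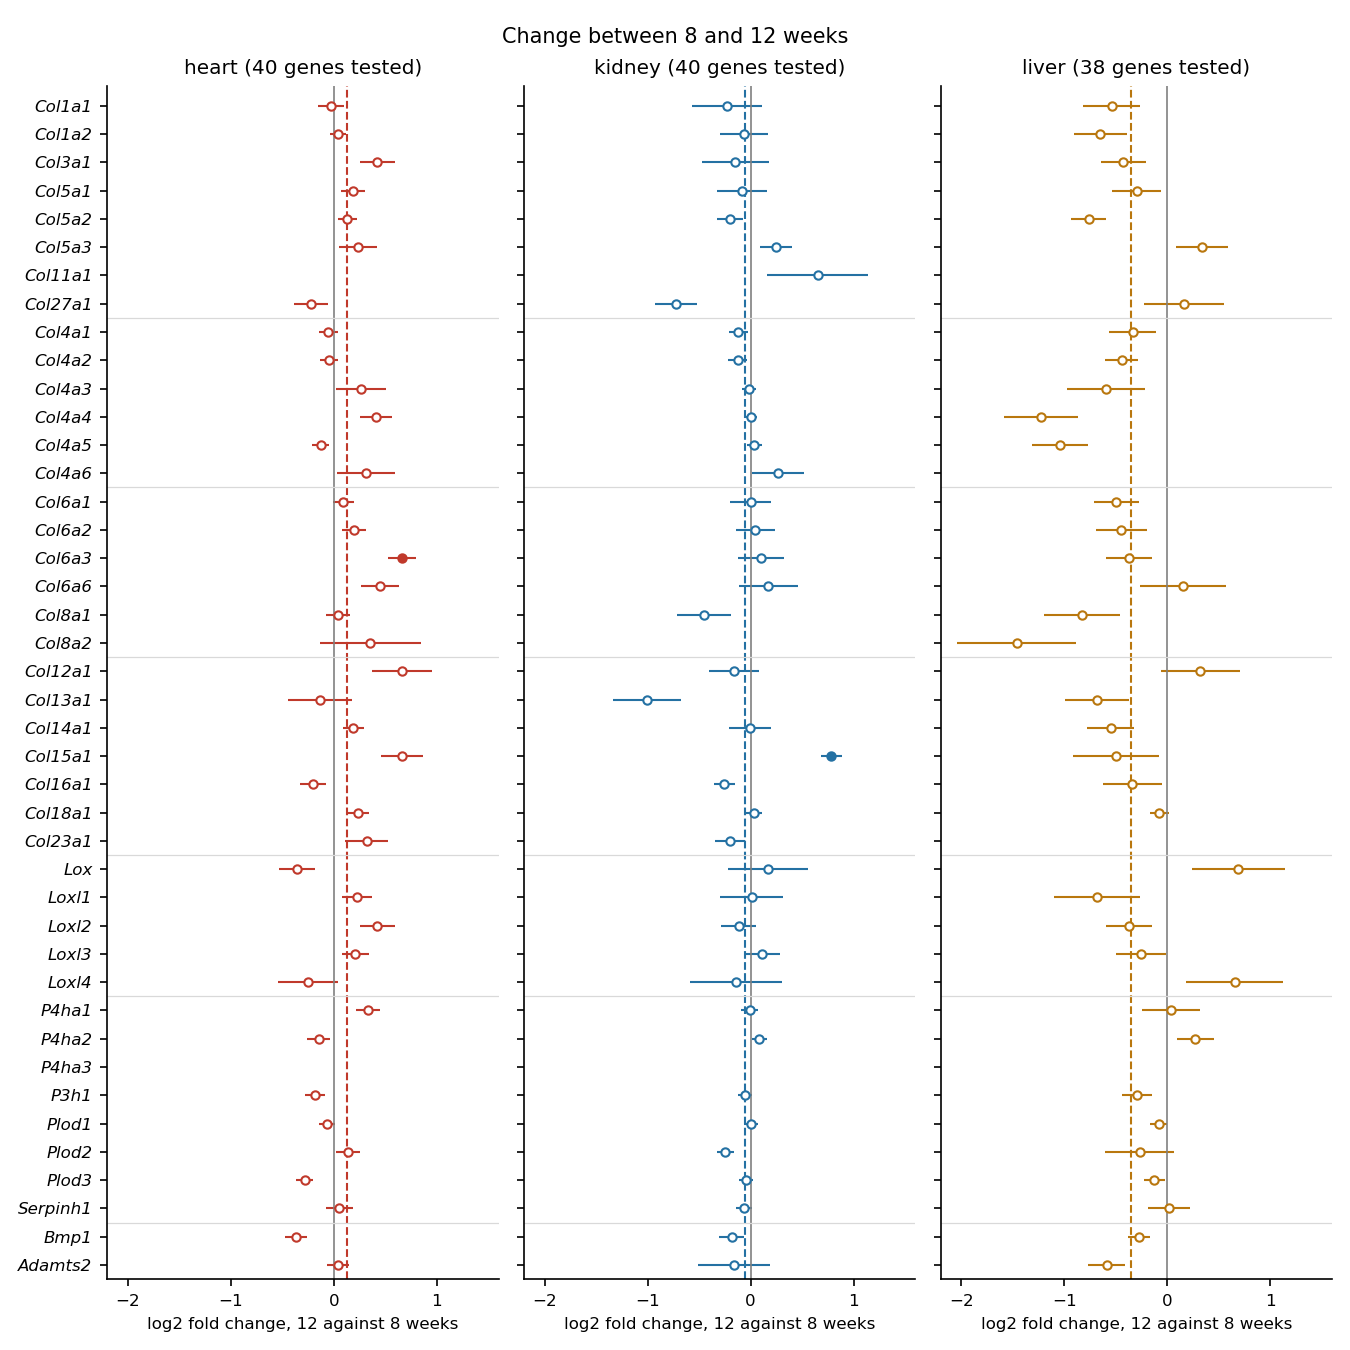
log2FC at 12 against 8 weeks of each member in heart, kidney and liver, with bars of ± SE, filled points for an adjusted p under 0.05 and a dashed line at the members' median. The median lies at 0.13 in heart, -0.049 in kidney and -0.35 in liver. The filled points are *Col6a3* in heart and *Col15a1* in kidney.

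The balance between chains of a collagen type was compared across ages by the log2 ratio of their CPM within a library. Of 21 ratios tested by tissue with an exact permutation test over all divisions of the 12 libraries into ages, none had an adjusted p under 0.05. The ratio of *Col3a1* to *Col1a1* in heart was 0.57 ± 0.080 at 8 weeks, 0.92 ± 0.167 at 10 weeks and 1.02 ± 0.183 at 12 weeks (mean ± SD, exact permutation p = 0.0071, adjusted p = 0.122). That of *Col6a3* to *Col6a1* in heart was -1.65 ± 0.148 at 8 weeks, -1.22 ± 0.203 at 10 weeks and -1.08 ± 0.230 at 12 weeks (exact permutation p = 0.0116, adjusted p = 0.122). Ratios of *Col4a1* to *Col4a2* had medians of 0.45 in heart, 0.35 in kidney and 0.35 in liver.

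Other genes of the collagen pathway had 1 call with age. They came from lists of 7 receptors, 12 breakdown and uptake genes, 20 further folding and processing factors, 17 further chains and 12 genes of TGF-beta signalling. Not all of them were tested in every tissue. *Ddr1*, a receptor tyrosine kinase for collagen, fell by 0.46 in log2FC in 12-week against 8-week hearts (-0.46 ± 0.09, edgeR adjusted p = 0.0139), from a mean of 33.6 to 24.6 CPM. It was 1 of the 7 receptors tested in heart, and the other 6 were not called, where 2.21% of all heart genes were called lower and 2.36% higher. Of the 11 breakdown and uptake genes tested in heart and the 10 in kidney none was called, although 10 of 11 in heart (median 0.24) and 9 of 10 in kidney (median 0.33) were positive at 10 against 8 weeks. Of all genes 49.1% were positive in heart (median -0.0045) and 50.5% in kidney (median 0.0023). Summed levels of breakdown and uptake genes were 416 ± 45.0 CPM in heart, 1214 ± 80.4 in kidney and 78.1 ± 13.5 in liver (n = 12), and *Timp3*, an inhibitor of matrix metalloproteinases, made up most of the kidney sum. Further folding and processing factors summed to 586 ± 15.4, 1177 ± 58.5 and 2470 ± 215 CPM in the same order, so that liver held the most of these although it was lowest for 21 members. The 7 collagen receptors had the order of heart, kidney and liver, at 671.6 ± 27.97, 453 ± 19.4 and 333 ± 12.1 CPM.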

How the data were processed

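Polyadenylated RNA from heart, kidney and liver was sequenced as paired reads. The authors trimmed the reads with cutadapt 4.2, checked them with FastQC 0.11.9 and aligned them to GRCm39 with Ensembl annotation by STAR 2.7.11b, which wrote the deposited counts per gene. Counts without regard to strand were used, since 49.8% to 50.2% of stranded pairs lay on the first strand. Genes needed 2 samples above 0 and a mean count of at least 10 in an age group of the tissue, which left 15137 genes in heart, 17649 in kidney, 14672 in liver and 19716 over all libraries. Counts were scaled with TMM factors and tested by edgeR 4.0.16 (R 4.3.3) with the quasi-likelihood test, Benjamini-Hochberg adjustment and a threshold of 0.05, within each tissue by age and, for tissue contrasts and interactions, over the 9 group means of all 36 libraries. Tissue calls also needed a log2 fold change beyond 1. DESeq2 1.42.0, limma-voom (limma 3.58.1), other scalings, no filter, a replicate block and each replicate left out were alternatives. Levels per kilobase used union exon length from GENCODE vM39. The code was tested on simulated data. Counting error at 21031599 to 33637390 pairs is small for all but the members of few counts.

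All members may be named, in order of role. Values per library are given for members called with age. For the 3 of highest level per kilobase in each tissue and the head-to-head collagen IV pairs, values per library, ranges with medians or means are given. Of other lists, genes called with age are named. Values of further members near a threshold were added after they were seen. Members, lists and tests were chosen with earlier results of these data known.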

Additional observations from a re-analysis of the deposited data

Results flagged for a closer look

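In 8 of 135 groups of 4 libraries 1 library stood apart by Dixon's criterion, the gap to the nearest over the range of the group, which chance gives in about 1 of 20 groups. *Bmp1* had 3 of them. It was at 8.91 CPM in kidney 8-week replicate 4 against 6.64 to 6.74 in the others (0.952), at 24.7 CPM in heart 10-week replicate 4 against 29.6 to 30.3 (0.879), and at 137 CPM in liver 8-week replicate 1 against 175 to 182 (0.837). *Col4a4* was at 249.9 CPM in kidney 8-week replicate 1 against 226 to 228 (0.914). *Col18a1* was at 11.7 CPM in heart 10-week replicate 2 against 14.5 to 14.8 (0.891) and at 1769 CPM in liver 10-week replicate 3 against 1577 to 1608 (0.839). *Col4a1* was at 58.7 CPM in liver 12-week replicate 1 against 27.3 to 32.0 (0.848), and *Col4a5* at 2.88 CPM in liver 12-week replicate 2 against 3.64 to 3.78 (0.848).

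Age changes that differed between tissues by the interaction test concerned 3 genes. At 12 against 8 weeks the change in liver less that in heart was -1.65 for *Col4a4*, -0.91 for *Col4a5* and -0.88 for *Col5a2* in log2FC, and liver less kidney was -1.06 for *Col4a5*. At 10 against 8 weeks liver less heart was -1.28 for *Col4a4* and -0.89 for *Col4a5*.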

How the results depend on the processing

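No called result changed direction under any alternative, and 260 summary values kept their call or stayed within 1.5 times, while 62 moved. Of single genes, 112 values kept their side of the threshold and 58 lost it. In heart at 10 against 8 weeks, 5 members were called, against 13 with no filter, 9 with DESeq2, 3 with limma-voom and 0 to 15 with 1 library left out. At 12 against 8 weeks, 1 was called, against 6 with no filter, 3 with DESeq2, 2 with the replicate block and 0 to 4 with 1 library left out. At 12 against 10 weeks, 0 were called, against 4 with no filter and 1 with DESeq2. In kidney the counts were 1 at 12 against 8 weeks (3 with no filter, 0 with the replicate block, where *Col15a1* had an adjusted p of 0.0626 by edgeR, and 0 to 1 with 1 library left out), 1 at 10 against 8 weeks (7 with no filter, 3 with DESeq2, 3 with the block, 0 to 2 with 1 library left out) and 0 at 12 against 10 weeks (6 with no filter, 2 with DESeq2, 0 to 1 with 1 library left out). In liver the count of 0 became 1 with no filter and 2 with DESeq2 at 12 against 8 weeks, 1 with DESeq2 at 10 against 8 weeks, and 2 with no filter and 3 with DESeq2 at 12 against 10 weeks. No filter and DESeq2 raised the number of all genes called in every age comparison too, and leaving out 1 library also moved it. In heart at 10 against 8 weeks, 115 of all genes were called higher and 46 lower, against 494 and 304 with no filter and 247 and 119 with DESeq2. For interactions at 12 against 8 weeks, no filter gave 4 for liver less kidney (0 to 1 with a replicate number left out) and 8 for liver less heart (2 to 4). At 10 against 8 weeks no filter gave 4 for liver less kidney (0 to 1), 5 for liver less heart (0 to 4) and 1 for heart less kidney (0 to 1). The cause was not tested. Libraries of 1 age in kidney and liver correlated best with the same replicate number in 12 of 12 cases each way (r from 0.052 to 0.279), a hint from the data, but not every pair passed 0.1 and numbers of different ages did not pair (median r of 0.02 in heart, -0.0011 in kidney and 0.013 in liver), so the block stands on a shared number alone. It changed no other count of calls by over 1.5 times. Few counts per library limit *P4ha3*, *Col8a2* and *Col11a1* in every tissue, and in liver also *Col4a3*, *Col4a4*, *Col4a6*, *Col6a6*, *Col8a1*, *Col12a1*, *Col23a1*, *Lox* and others, so the folds against liver of these genes rest on few liver counts.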

Other observations

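Markers from several of the cell type lists had their own differences with age. In heart at 12 against 8 weeks, *Hand2*, a transcription factor of the hepatic stellate list that heart also expresses, was lower (log2FC -1.41, edgeR adjusted p = 0.00611). In kidney *Cspg4*, a pericyte marker, was lower at 10 against 8 weeks (-0.43, edgeR adjusted p = 0.0163), and *Aqp2*, the collecting duct water channel, was lower at 12 against 10 weeks (-1.10, edgeR adjusted p = 0.0239). In liver the 5 macrophage markers summed to between 65.8 and 129.5 CPM at 8 weeks, between 146 and 225 at 10 weeks and between 88.1 and 102 at 12 weeks, so that the 10-week values lay above the rest.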
